A study of Mus musculus with 9 samples.

Results

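The genes described here encode the RNA polymerases and the proteins that bring them to promoters: subunits of RNA polymerases I, II and III (symbols Polr1, Polr2 and Polr3), general transcription factors (Gtf), TBP-associated factors (Taf) and subunits of Mediator (Med). They were taken as all protein-coding genes whose symbols carry these stems followed by a digit, with Taf7l left out. That gave 104 members of 21405 protein-coding genes, in a table of 50493 features. The choice used names and no measured value. All 104 members passed the filter on low counts.

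The libraries came from WT mouse testis and cover 3 stages of male germ cell development. Pachytene spermatocytes (PAC) are meiotic cells that pair and recombine their chromosomes, round spermatids (RS) are haploid, and elongating spermatids (ES, called elongation spermatids in the labels) condense their chromatin. Each cell type had 3 libraries, made from total RNA depleted of ribosomal RNA with a protocol that keeps strand, and the design text calls them biological replicates. No treatment is named and all 9 libraries carry the same WT genotype. The sources used here give no age, strain, cell isolation method or number of animals per library, so the p-values measure the spread between these libraries.

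RNA polymerase II transcribes protein-coding genes, RNA polymerase I the large ribosomal RNA precursor, and RNA polymerase III the transfer RNAs, 5S ribosomal RNA and other small RNAs. At an RNA polymerase II promoter TFIID, made of the TATA-binding protein TBP and its associated factors, is joined by TFIIA, TFIIB, TFIIE, TFIIF and TFIIH, and Mediator carries signals from bound activators to the polymerase. RNA polymerase I needs the factor SL1, and RNA polymerase III uses TFIIIC at many of its promoters. Spermatocytes and spermatids are known to use germ-cell paralogs of several of these proteins, and transcription is shut down as the spermatid nucleus condenses.

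Total counts ran from 22910156 to 33801617 per library. Summed over 10 marker genes, pachytene spermatocyte markers stood at 4946 to 5185 CPM (library-scaled counts, after TMM scaling) in PAC, 3251 to 3419 in RS and 2702 to 3103 in ES. The 8 round spermatid markers summed to 549.5 to 700.6 CPM in PAC, 2164 to 2323 in RS and 3400 to 4072 in ES. Their sum was thus highest in ES, although 6 of them were lower and 2 higher in ES than in RS. The 8 elongating spermatid markers, with the protamine and transition protein genes among them, summed to 1893 to 2631 CPM in PAC, 13980 to 15880 in RS and 36450 to 67050 in ES. The 8 spermatogonium markers summed to 93.3 to 120.7 CPM in PAC, 36.6 to 39.2 in RS and 42.4 to 53.6 in ES. RNA of testis somatic cells was also present in unequal amounts. The 12 Sertoli cell markers summed to 40.6 to 83.2 CPM in PAC, 9.38 to 10.3 in RS, where Amh and Fshr were at 0, and 224.6 to 260.5 in ES. The 7 Leydig cell markers summed to 88.5 to 122 CPM in PAC, 1.86 to 2.19 in RS and 18.4 to 24.3 in ES. The 8 macrophage and blood markers summed to 4.0 to 6.03 CPM in PAC, 13.8 to 17.2 in RS and 133.6 to 217.1 in ES. For 6 peritubular and vascular markers the sums were 4.53 to 5.66 CPM in PAC, 10.3 to 19.7 in RS and 8.44 to 13.0 in ES. The part of these cells in the results below was not tested.

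The first comparison set RS against PAC, the step across the meiotic divisions. Of the 104 members, 69 were lower in RS, 8 were higher and 27 did not pass the test (edgeR's quasi-likelihood test, Benjamini-Hochberg adjusted p below 0.05). Among all 26030 features tested, 34.2% were lower and 38.2% higher. Among the 14836 protein-coding genes tested, 46.9% were lower and 26.3% higher. Counts by complex given below for RS against PAC are to be read beside these shares. The median log2 fold change of RS over PAC was -1.08 over the members, -0.46 over protein-coding genes and 0.11 over all features. At 2-fold or more, 54 members were lower and 3 higher, where 34.5% of protein-coding genes were lower and 20.4% higher. In bulk RNA, less RNA per cell and fewer cells of a type cannot be told apart, and each value is a share of its library.

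The split between higher and lower members depended on the scaling. With upper-quartile factors 16 members were higher and 61 lower, beside 32.3% and 37.8% of protein-coding genes. With protein-coding genes alone setting the scale 19 were higher and 59 lower, beside 34.4% and 36.4% of protein-coding genes. The 11 members that were added as higher on this last scale were Gtf2a2, Gtf2e2, Gtf2f1, Gtf3c2, Med25, Med28, Polr2f, Polr2i, Taf5, Taf6l and Taf12, of which all but Gtf2e2, Gtf2f1 and Taf6l also passed with upper-quartile factors. The same changes of scale moved the median of tested protein-coding genes. It was -0.46 with TMM, -0.16 with upper-quartile factors and -0.07 with protein-coding genes alone setting the scale. Over all features the median was 0.11 with TMM and 0.42 with upper-quartile factors. Of the 69 lower members, Med9, Polr1d and Taf11 turned to the other direction when protein-coding genes alone set the scale, and no member turned under the other alternatives.

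**Figure D1:**
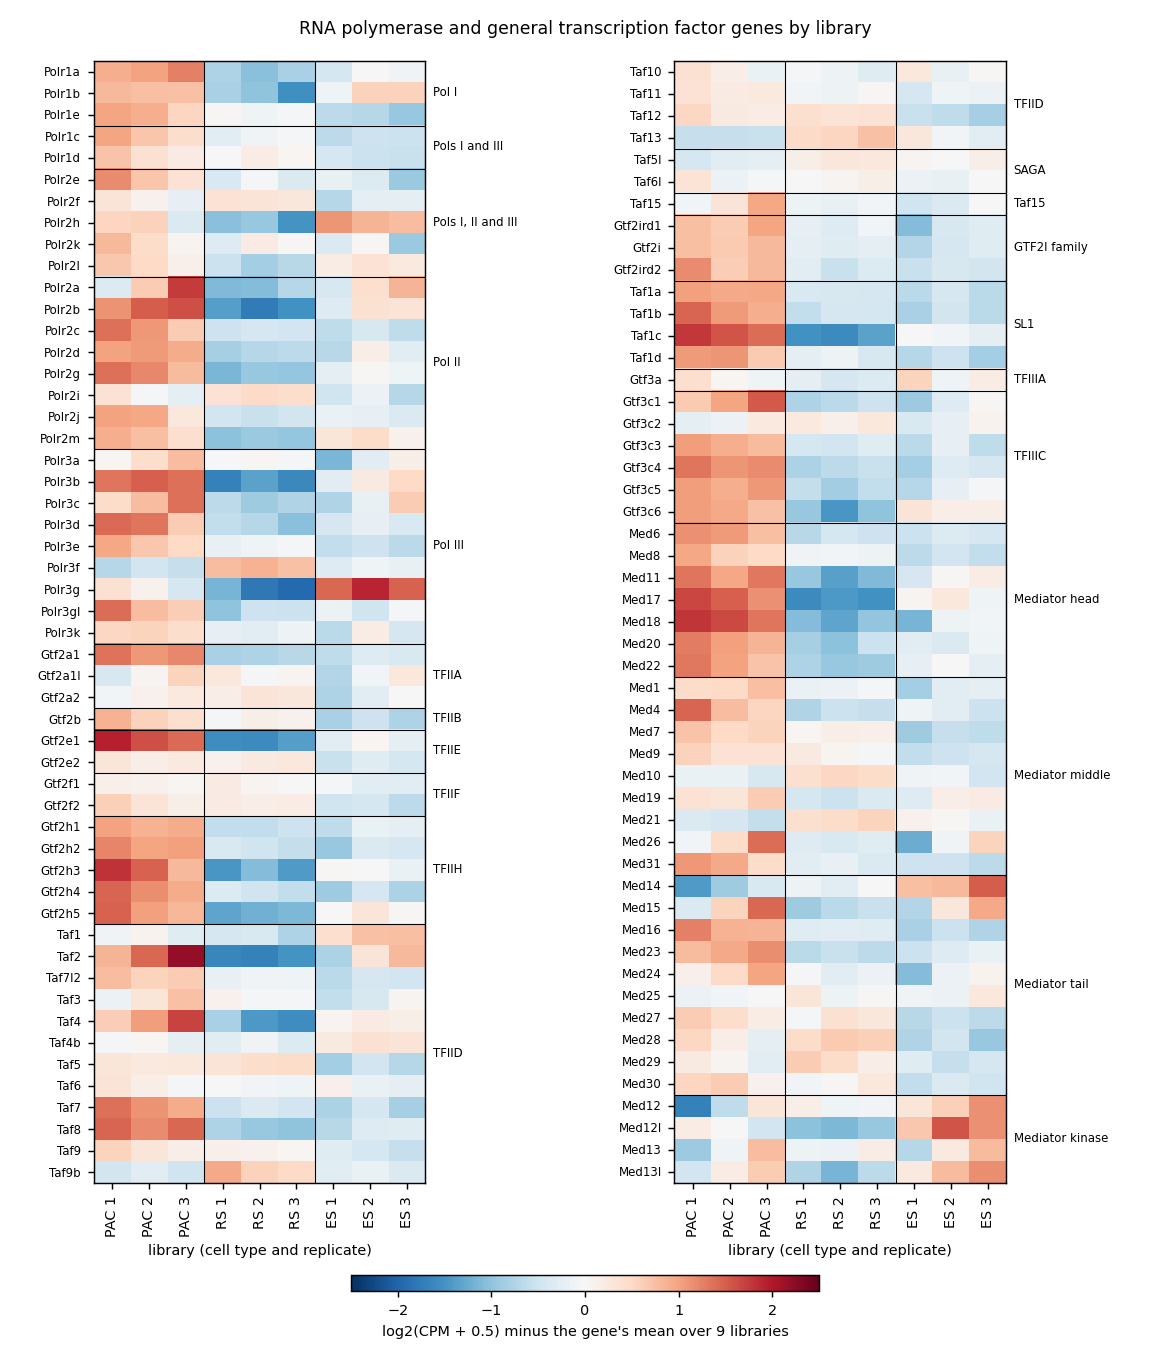
Level of 103 of the 104 members in the 9 libraries, as the difference of log2(CPM + 0.5) from the gene's mean over the libraries, with genes ordered by complex down the page and libraries of PAC, RS and ES from left to right. Of the members, 60 were highest in PAC, and genes of 1 complex often differ in colour within the same block.

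Most RNA polymerase II genes were lower in RS, 7 of 8, and none passed as higher. Polr2m, whose product binds the polymerase, is counted among them. Polr2b encodes the second largest subunit, which forms the catalytic centre together with the product of Polr2a. Polr2b stood at 7.14, 5.46 and 6.51 CPM in RS replicates 1 to 3, against 42.7, 56.1 and 59.9 CPM in PAC. The ranges lay far apart, at a log2 fold change of -3.05 ± 0.23 (SE; edgeR adjusted p = 7.95e-07), which is 8.30-fold lower in RS.

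Polr2a, the largest subunit, had 7.11, 7.18 and 9.38 CPM in RS and a wide 12.2, 24.7 and 53.8 CPM in PAC. Its log2 fold change was -1.94 ± 0.50 (edgeR adjusted p = 0.00675). Polr2a has a longest annotated transcript of 6740 bases, and PAC libraries differed by transcript length: genes of 6000 bases or more stood relative to genes under 1500 bases at -0.28, -0.06 and 0.34 (log2 deviation from the PAC mean) in replicates 1, 2 and 3. The same difference was -0.01, -0.06 and 0.07 in RS and -0.27, 0.05 and 0.26 in ES. Of the 12 members with transcripts of 6000 bases or more, 8 had CPM values in that order in PAC, namely Polr1a, Polr2a, Med1, Med12, Med13, Med13l, Med14 and Gtf3c1, and 4 did not, namely Gtf2a1, Gtf3c4, Med12l and Taf1. Of the other 92 members 17 had that order, among them Taf2, Med15 and Med26. The part of transcript length in these values was not tested.

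The stalk subunits Polr2d and Polr2g were lower by 1.95 ± 0.25 and 2.31 ± 0.20 on the log2 scale in RS than in PAC. Polr2c and Polr2j, which form the assembly heterodimer, were lower by 1.54 ± 0.18 and 1.36 ± 0.21. Polr2i, a small subunit, was the one RNA polymerase II gene that did not pass. It had 83.0, 89.95 and 87.3 CPM in RS and 82.1, 61.7 and 53.9 CPM in PAC (log2 fold change 0.40 ± 0.18, edgeR adjusted p = 0.0691).

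RNA polymerase III genes went both ways. Of its 10 own subunits, 8 were lower in RS and 1 was higher. Polr3b, the second largest subunit, had 2.05, 2.73 and 2.19 CPM in RS and 20.4, 22.5 and 20.9 CPM in PAC. Every RS library was well below every PAC library (log2 fold change -3.19 ± 0.23, edgeR adjusted p = 6.55e-07).

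Polr3f, a subunit of the initiation subcomplex, was the exception. It had 15.6, 16.9 and 15.2 CPM in RS, against 5.32, 6.36 and 5.91 CPM in PAC. Among the 104 members this was the largest increase in RS, at a log2 fold change of 1.44 ± 0.16 (edgeR adjusted p = 1.17e-05) or 2.72-fold. Polr3a, the largest subunit, had 6.03, 6.199 and 5.81 CPM in RS and 6.19, 8.30 and 10.6 CPM in PAC, which overlapped (log2 fold change -0.47 ± 0.31, edgeR adjusted p = 0.182).

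All 3 members specific to RNA polymerase I were lower in RS. So were Twistnb and Cd3eap, subunit genes of that polymerase outside the Polr1 names (log2 fold changes -1.23 and -0.935, edgeR adjusted p = 0.000144 and 0.0209). Znrd1, another such gene, was higher, with 25.6 ± 4.96 CPM in RS and 17.2 ± 0.634 CPM in PAC (SD, n = 3 each; log2 fold change 0.57, edgeR adjusted p = 0.0111). Polr1a and Polr1b, which encode the catalytic subunits of RNA polymerase I, fell by 1.97 ± 0.17 and 2.75 ± 0.41 on the log2 scale. Polr1b rested on few reads in RS, with 20, 17 and 6 counts there and 76 to 93 counts in PAC. Both assembly subunits shared by RNA polymerases I and III were lower too. The call for Polr1d (log2 fold change -0.37 ± 0.15, edgeR adjusted p = 0.0391) was lost under many alternatives, and its log2 fold change was 0.026 when protein-coding genes alone set the scale. Of the 5 subunits common to all 3 polymerases, Polr2e, Polr2h and Polr2l were lower in RS while Polr2f and Polr2k did not pass.

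The selectivity factor of RNA polymerase I, SL1, showed the deepest single decrease. Taf1c, one of its TBP-associated subunits, had 0.693, 0.628 and 0.847 CPM in RS and 11.0, 9.58 and 8.47 CPM in PAC. That is 13.4-fold lower in RS (log2 fold change -3.74 ± 0.23, edgeR adjusted p = 2.29e-07), a value that rests on 23, 23 and 29 counts in RS. The other subunits Taf1a, Taf1b and Taf1d fell by 1.44, 1.67 and 1.22 on the log2 scale, so all 4 were lower.

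Among the basal factors of RNA polymerase II, TFIIA to TFIIH, 8 of 13 genes were lower in RS and none higher. Subunits of the same small factor differed. TFIIE is made of an alpha subunit from Gtf2e1 and a beta subunit from Gtf2e2, and helps TFIIH to load and work at the promoter. Gtf2e1 had 9.85, 9.56 and 11.1 CPM in RS and 115, 91.7 and 79.7 CPM in PAC, a log2 fold change of -3.23 ± 0.18 (edgeR adjusted p = 1.04e-07) or 9.39-fold lower in RS. Its partner Gtf2e2 had 167, 182 and 188 CPM in RS and 194, 174 and 184 CPM in PAC, and the cell types overlapped (log2 fold change -0.04 ± 0.12, edgeR adjusted p = 0.796). On the per-length FPKM scale the alpha gene averaged 3.62 in RS and 32.6 in PAC, and the beta gene 119 in RS and 115 in PAC.

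TFIIH opens the promoter DNA and phosphorylates the polymerase tail, and its 5 Gtf2h members all fell in RS, by 1.51 to 2.96 on the log2 scale. Gtf2h3 had the deepest fall of these, with 2.02, 2.76 and 2.10 CPM in RS and 23.5, 18.7 and 11.5 CPM in PAC. TFIIF, which escorts the polymerase to the promoter, did not pass at either subunit. Gtf2f1 was 0.00 ± 0.12 and Gtf2f2 -0.18 ± 0.14 on the log2 scale of RS over PAC. Gtf2b, which encodes TFIIB, fell by 0.55 ± 0.15 in RS, a call lost when upper-quartile factors or protein-coding genes alone set the scale.

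TFIIA stabilises TBP on the promoter and exists in a germ-cell form whose large subunit comes from Gtf2a1l. The general gene Gtf2a1 had 20.5, 21.1 and 22.2 CPM in RS and 93.7, 77.5 and 85.0 CPM in PAC (log2 fold change -2.005 ± 0.14, edgeR adjusted p = 5.99e-07). The germ-cell gene Gtf2a1l had 146, 119 and 128 CPM in RS and 91.9, 128 and 179 CPM in PAC, overlapping throughout (log2 fold change -0.02 ± 0.27, edgeR adjusted p = 0.949). Gtf2a2, the small subunit of both forms, had a log2 fold change of 0.15 ± 0.18.

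Of the 16 TFIID genes, 6 were lower in RS, 2 were higher and 8 did not pass. Of protein-coding genes 46.9% were lower and 26.3% higher, and of all features 34.2% and 38.2%. Taf2 binds the initiator region of promoters and Taf4 is a scaffold of the complex. Taf2 had 4.19, 3.96 and 4.64 CPM in RS and 25.7, 38.5 and 65.5 CPM in PAC (log2 fold change -3.34 ± 0.45, edgeR adjusted p = 0.000116). Taf4 had 23, 10 and 7 counts in RS and 87, 104 and 173 counts in PAC (log2 fold change -3.44 ± 0.45, edgeR adjusted p = 4.13e-05). Both were clearly apart between the cell types, although the RS level of Taf4 rests on few reads.

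Taf13, a histone-fold subunit, went the other way with 9.76, 10.1 and 11.7 CPM in RS and 4.38, 4.42 and 4.505 CPM in PAC. The log2 fold change was 1.25 ± 0.19 (edgeR adjusted p = 0.000139). Taf9b, an X-linked paralog of Taf9, had 22.7, 17.2 and 16.1 CPM in RS and 8.21, 9.43 and 7.96 CPM in PAC, again with no overlap (log2 fold change 1.13 ± 0.17, edgeR adjusted p = 0.000139). Taf11, the histone-fold partner of Taf13, was lower by 0.33 ± 0.14, and that call did not hold under several alternatives. Taf5, Taf6, Taf10 and Taf12 had log2 fold changes between -0.30 and 0.14 and did not pass.

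**Figure D2:**
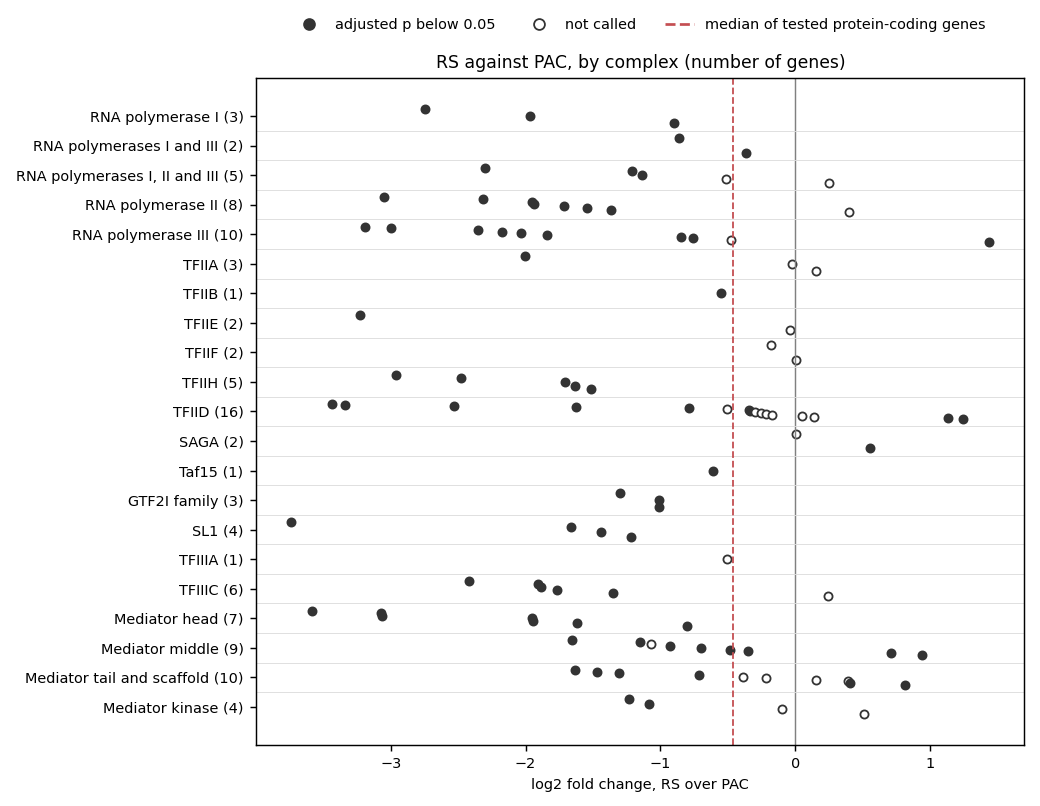
Log2 fold change of RS over PAC for every member, grouped by complex, where each point is 1 gene, filled where edgeR's adjusted p was below 0.05, and the dashed line is the median of tested protein-coding genes (-0.46). All members of TFIIH, SL1 and the Mediator head lie below 0, and Polr3f, Taf13 and Taf9b are the 3 highest points.

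Mediator has a head that touches the polymerase, a middle, a tail that meets activators, the scaffold subunit Med14 and a kinase module that can detach. In RS 19 of its 30 genes were lower and 4 higher. In the head all 7 genes were lower, with a median log2 fold change of -1.95. Med17, the central head subunit, had 5.70, 6.39 and 6.08 CPM in RS and 59.3, 51.8 and 40.8 CPM in PAC (log2 fold change -3.06 ± 0.18, edgeR adjusted p = 1.83e-07). Every RS library lay far below every PAC library. Med18, also a head subunit, had 0.542, 0.382 and 0.613 CPM in RS and 7.09, 6.40 and 5.08 CPM in PAC (log2 fold change -3.59 ± 0.39, edgeR adjusted p = 1.02e-05). Med11 of the head fell by 3.07 ± 0.30 on the log2 scale. Both rested on few reads in RS, with 18, 14 and 21 counts for Med18 and 25, 16 and 21 counts for Med11.

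The middle module held genes of both directions. Med10 had 142, 153 and 146 CPM in RS and 94.8, 94.5 and 80.3 CPM in PAC (log2 fold change 0.71 ± 0.14, edgeR adjusted p = 0.000938). Med21, whose yeast form pairs with Med7 in the hinge of the middle module, had 49.5, 51.5 and 54.9 CPM in RS and 28.9, 27.8 and 24.6 CPM in PAC (log2 fold change 0.94 ± 0.13, edgeR adjusted p = 7.99e-05). Med7 itself was lower, with 87.8, 94.2 and 92.9 CPM in RS and 139.6, 119.9 and 126 CPM in PAC (log2 fold change -0.49 ± 0.13, edgeR adjusted p = 0.00562). The Med7 call was lost when upper-quartile factors or protein-coding genes alone set the scale, at log2 fold changes of -0.18 and -0.09.

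In the tail and scaffold group 4 of 10 genes were lower and 2 higher. Beside these, 46.9% and 26.3% of protein-coding genes and 34.2% and 38.2% of all features were lower and higher. Med16 and Med23 fell by 1.31 ± 0.15 and 1.63 ± 0.15 on the log2 scale. Med14 had 4.61, 4.04 and 5.11 CPM in RS and 1.59, 2.52 and 3.75 CPM in PAC (log2 fold change 0.81 ± 0.31, edgeR adjusted p = 0.0348), a call that was lost on the FPKM values and without RS replicate 1 or 3 or PAC replicate 1 or 2. Med29 passed narrowly at 0.41 ± 0.17 (edgeR adjusted p = 0.0474) with overlapping ranges, and its call was lost with DESeq2 size factors and without several single libraries.

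For RNA polymerase III promoters, 5 of the 6 TFIIIC genes were lower in RS, with log2 fold changes from -1.35 to -2.42. Gtf3c4 had 48.0, 53.1 and 56.5 CPM in RS and 211, 180.3 and 190.3 CPM in PAC. Gtf3c2 had a log2 fold change of 0.24 ± 0.17, but 38.9% of its exon bases are shared with the same-strand gene Gm29609, so its reads are uncertain. Gtf3a, which encodes TFIIIA of the 5S RNA genes, did not pass. All 3 genes of the TFII-I family were lower by 1.01 to 1.30 on the log2 scale. Taf15, which encodes an RNA-binding protein, was lower by 0.61 ± 0.24, and the histone acetyltransferase complex SAGA had Taf5l higher at 0.55 ± 0.12 and Taf6l at 0.01 ± 0.15.

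**Figure D3:**
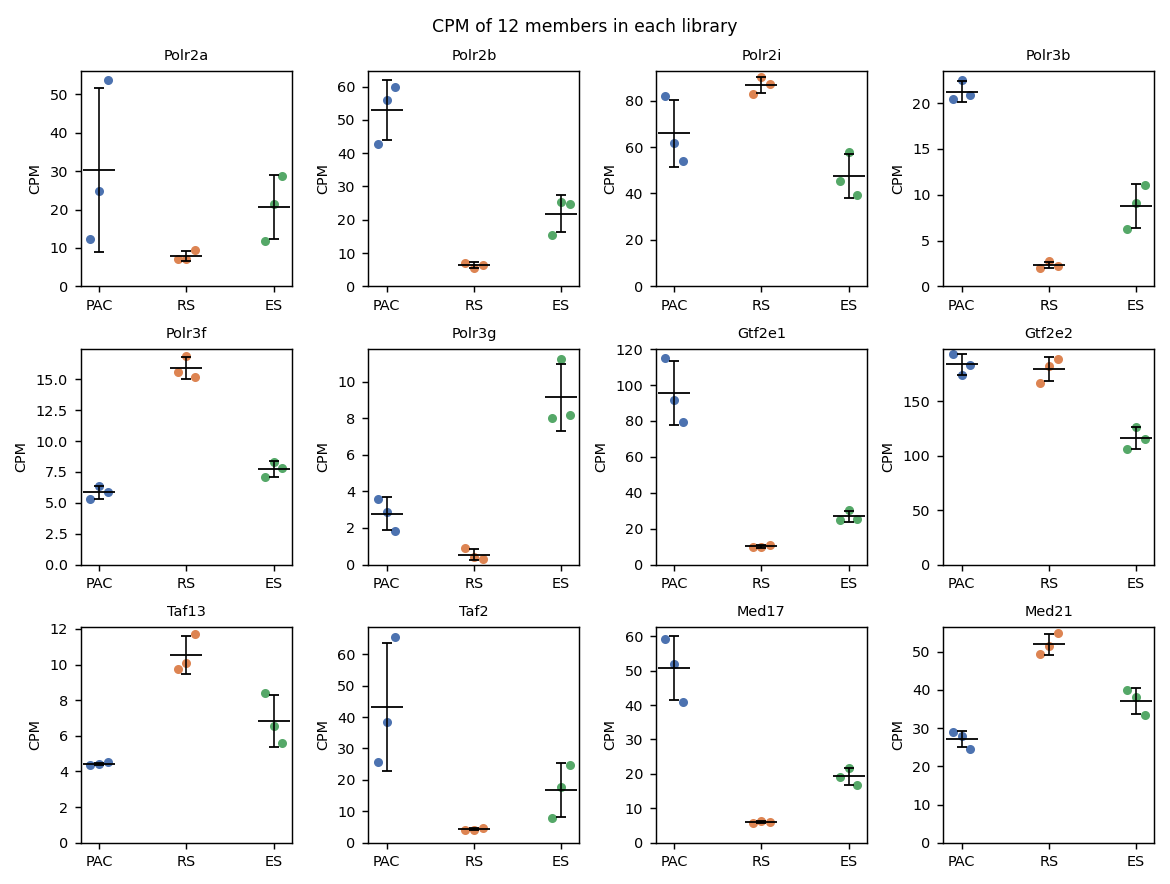
CPM of 12 members in each library (linear axes from 0), each panel 1 gene with PAC, RS and ES from left to right, points for libraries and lines for the mean and SD of 3 libraries. Gtf2e1, Polr2b and Polr3b have their lowest points in RS, Polr3f, Taf13 and Med21 have their highest there, and Polr3g has its highest in ES.

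The promoters of some of the named members are printed here to set their sequences side by side. They are the 150 bases before the annotated start, from RefSeq on GRCm38.p6, written 5′ to 3′ on the strand of the gene with motif matches in capitals. Gtf2e1, Polr2b and Gtf2a1 were lower in RS, Polr3f and Taf13 were higher, and Gtf2a1l did not pass. The windows lie at chr16:37539790-37539939 on the minus strand, chr5:77310334-77310483 on the plus strand, chr12:91590488-91590637 on the minus strand, chr2:144527595-144527744 on the plus strand, chr3:108571549-108571698 on the plus strand and chr17:88668510-88668659 on the plus strand, in the order printed. The Gtf2a1l window precedes a start that lies inside the gene's listed span.
Gtf2e1: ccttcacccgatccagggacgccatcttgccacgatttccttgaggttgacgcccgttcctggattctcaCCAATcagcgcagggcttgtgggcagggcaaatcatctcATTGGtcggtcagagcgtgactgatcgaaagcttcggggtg
Polr2b: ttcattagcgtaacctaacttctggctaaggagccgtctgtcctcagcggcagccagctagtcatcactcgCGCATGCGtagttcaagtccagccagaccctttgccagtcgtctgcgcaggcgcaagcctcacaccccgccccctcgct
Gtf2a1: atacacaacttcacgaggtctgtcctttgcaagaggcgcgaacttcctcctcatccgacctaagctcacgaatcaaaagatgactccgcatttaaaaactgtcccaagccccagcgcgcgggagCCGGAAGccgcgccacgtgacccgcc
Polr3f: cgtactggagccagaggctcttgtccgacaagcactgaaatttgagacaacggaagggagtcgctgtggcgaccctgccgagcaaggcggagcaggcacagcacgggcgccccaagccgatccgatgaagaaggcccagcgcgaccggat
Taf13: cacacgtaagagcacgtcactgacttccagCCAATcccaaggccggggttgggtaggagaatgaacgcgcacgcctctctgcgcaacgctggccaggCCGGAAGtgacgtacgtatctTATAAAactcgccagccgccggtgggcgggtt
Gtf2a1l: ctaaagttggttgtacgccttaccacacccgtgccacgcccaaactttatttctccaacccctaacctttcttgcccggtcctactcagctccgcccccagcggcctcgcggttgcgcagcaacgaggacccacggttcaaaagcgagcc

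The capitals mark the CCAAT box (CCAAT, or ATTGG where it reads on the opposite strand), the ETS-type core CCGGAAG, the TATA box TATAAA and the NRF1-type core GCATGCG, which in Polr2b matches on both strands over overlapping bases. The cAMP response element core TGACGTC, the MYB-type core GCAGTT and the YY1-type core ATGGCGG were searched as well. Each motif was looked for on both strands in the 250 bases before the start, in the 90 members that had a promoter in the table. The ETS-type core was in 24.4% of member promoters, against 12.3% of the promoters of 11981 tested protein-coding genes and 7.05% of all 27025 promoters. It was in 23.3% of the 60 promoters of members lower in RS, in 3 of the 8 of members higher in RS and in 22.7% of the 22 that did not pass. The CCAAT box was in 33.3% of member promoters, 36.7% of those of tested protein-coding genes and 34.5% of all promoters. For the TATA box the shares were 13.3%, 7.05% and 13% in the same order. Neither the Polr3f window nor the Gtf2a1l window held any of the 7 motifs, which says only that these letters are not in those bases.

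The second comparison set ES against RS. Here 30 members were higher in ES, 28 were lower and 46 did not pass. Among all features tested 24.5% were higher and 22.1% lower, and among protein-coding genes 31.8% were higher and 21.7% lower. The median log2 fold change of ES over RS was -0.06 over the members and 0.18 over protein-coding genes. The Sertoli cell and macrophage and blood markers were far higher in ES than in RS, as given above, with all 10 tested Sertoli markers higher, and their part in the increases of members was not tested.

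This split also moved with the scaling. DESeq2 size factors gave 37 members higher and 18 lower, beside 36.8% and 17.6% of protein-coding genes. Total counts alone gave 22 higher and 40 lower, beside 22% and 31%. The median of all features was 0.05 with TMM, 0.19 with DESeq2 size factors and -0.28 with total counts. On the FPKM values 21 members were higher and 37 to 41 lower. Beside these, 20.5% and 32% of protein-coding genes were higher and lower with 0.1 added, 20.3% and 32.6% with 1 added, and 15.2% and 23.7% without a filter.

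Of the 28 genes with RNA polymerase names, 11 were higher in ES and 7 lower, with Polr2m among the 28 and among the 11. Of protein-coding genes 31.8% were higher and 21.7% lower, and of all features 24.5% and 22.1%. Polr3g encodes 1 of 2 alternative subunits of the RNA polymerase III initiation subcomplex. It had 7.999, 11.2 and 8.19 CPM in ES and 0.904, 0.410 and 0.321 CPM in RS. No other member rose as much in ES, at a log2 fold change of 4.07 ± 0.39 (edgeR adjusted p = 1.31e-05) or 16.8-fold, with 30, 15 and 11 counts behind the RS values.

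Polr2h, a subunit shared by all 3 polymerases, had 3.73, 3.06 and 2.89 CPM in ES and 0.452, 0.519 and 0.204 CPM in RS (log2 fold change 3.02 ± 0.42, edgeR adjusted p = 0.000144). The catalytic subunit genes Polr1b, Polr2b and Polr3b were higher by 2.29 ± 0.41, 1.78 ± 0.22 and 1.92 ± 0.22 on the log2 scale of ES over RS. Polr2b reached 15.4, 25.3 and 24.8 CPM in ES, above all 3 RS libraries and below all 3 PAC libraries. Polr2m, which encodes Gdown1, a protein that binds RNA polymerase II, was higher at 1.29 ± 0.16.

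Outside the polymerases, Taf4 was higher in ES by 2.20 ± 0.46, Taf2 by 1.98 ± 0.43 and Taf1c by 1.89 ± 0.23 on the log2 scale. The Taf4 call was lost on log2(FPKM + 1). In TFIIE the alpha gene Gtf2e1 had 24.8, 30.6 and 25.4 CPM in ES and 9.85, 9.56 and 11.1 CPM in RS (log2 fold change 1.41 ± 0.17, edgeR adjusted p = 5.16e-05). The beta gene Gtf2e2 had 106, 126 and 115 CPM in ES and 167, 182 and 188 CPM in RS, which was lower (log2 fold change -0.63 ± 0.12, edgeR adjusted p = 0.00149). In the Mediator head 5 of 7 genes were higher, among them Med20, whose direction turned on the FPKM values, and Med8 was lower.

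Med12l and Med13l, long genes of the Mediator kinase module, were higher by 2.61 ± 0.30 and 1.70 ± 0.32 on the log2 scale. Protein-coding genes with transcripts of 6000 bases or more had a median of 0.43 in this comparison, against -0.10 for those under 1500 bases. Among members the 12 long ones had a median of 0.76 and the 16 short ones -0.24.

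The genes lower in ES than in RS included subunits of the Mediator tail and of TFIID. Med28, of the tail group, had 81.8, 101 and 71.5 CPM in ES and 192, 218 and 209 CPM in RS, with no overlap (log2 fold change -1.28 ± 0.19, edgeR adjusted p = 0.000267). Taf5 had 22.4, 29.2 and 24.8 CPM in ES and 51.5, 55.7 and 56.2 CPM in RS (log2 fold change -1.09 ± 0.14, edgeR adjusted p = 6.89e-05). Taf12, a histone-fold subunit, had 39.8, 37.8 and 32.9 CPM in ES and 78.4, 74.96 and 76.4 CPM in RS (log2 fold change -1.05 ± 0.14, edgeR adjusted p = 0.000106). In each of these genes every ES library was below every RS library.

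Polr3f had 7.08, 8.35 and 7.81 CPM in ES and 15.6, 16.9 and 15.2 CPM in RS (log2 fold change -1.04 ± 0.16, edgeR adjusted p = 0.000279). Taf9b was lower by 0.97 ± 0.17, and Taf13 by 0.62 ± 0.19, a call lost with DESeq2 size factors. Further decreases were those of Med27, Polr2i, Med29, Med7 and Polr1e, between -0.79 and -0.90 on the log2 scale.

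**Figure D4:**
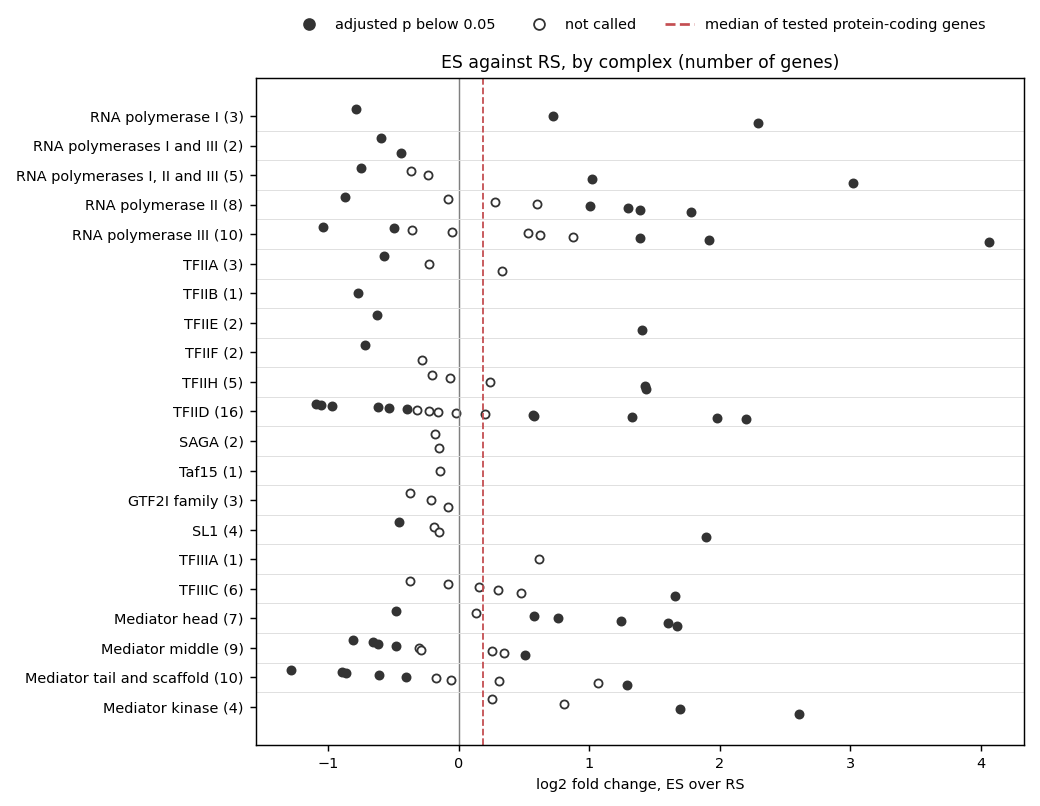
Log2 fold change of ES over RS for every member, grouped by complex, where each point is 1 gene, filled where edgeR's adjusted p was below 0.05, and the dashed line is the median of tested protein-coding genes (0.18). Polr3g and Polr2h are the highest points and Med28 the lowest, and most complexes hold points on both sides of 0.

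The third comparison set ES against PAC and shares its libraries with the other comparisons. In ES 73 members were lower, 10 higher and 21 did not pass. Among all features 33.7% were lower and 30.6% higher, and among protein-coding genes 42.6% were lower and 25.2% higher. The median log2 fold change of ES over PAC was -1.003 over the members and -0.39 over protein-coding genes. The count of higher members fell to 6 without ES replicate 3, and to 3 with total counts alone, beside 23.7% and 20.3% of protein-coding genes.

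All members of TFIIH, SL1, the Mediator head and the TFII-I family were lower in ES than in PAC, and so were 5 of 6 TFIIIC genes. Med18 had 0.486, 1.51 and 1.61 CPM in ES and 7.09, 6.40 and 5.08 CPM in PAC (log2 fold change -2.35 ± 0.37, edgeR adjusted p = 0.000161). Taf8, a TFIID subunit, had 2.32, 3.15 and 3.22 CPM in ES and 12.1, 9.87 and 11.9 CPM in PAC (log2 fold change -1.96 ± 0.21, edgeR adjusted p = 9.43e-06). Gtf2h4, Taf1c, Taf7, Gtf2e1 and Taf1b followed, between -1.82 and -1.92 on the log2 scale. The calls for Taf2 (-1.36 ± 0.41) and Taf4 (-1.24 ± 0.40) were lost without PAC replicate 3, at -0.95 and -0.88.

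Among genes higher in ES than in PAC, Med14 was first. It had 8.92, 9.24 and 15.4 CPM in ES and 1.59, 2.52 and 3.75 CPM in PAC (log2 fold change 2.10 ± 0.32, edgeR adjusted p = 0.000126), or 4.29-fold. Polr3g followed at 1.71 ± 0.34, with 7.999, 11.2 and 8.19 CPM in ES and 3.61, 2.89 and 1.84 CPM in PAC. Med12l was higher at 1.37 ± 0.28, Med12 at 1.31 ± 0.48 and Taf1 at 0.82 ± 0.23. The Med12 call was lost under 9 alternatives, among them leaving out ES replicate 2 or 3 or PAC replicate 1 or 2. Taf13, Med21, Taf4b, Polr3f and Taf5l were higher by 0.40 to 0.62, and the calls of all 5 were lost with total counts alone. Of the 10 higher members, 3 kept their call with total counts alone and 4 on log2 FPKM with 0.1 or 1 added. The calls of Polr3f and Taf4b were also lost without any single library other than ES replicate 1, and that of Taf5l without ES replicate 3.

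Placed over the 3 stages, 60 members were highest in PAC, called higher there against both other cell types, beside 33.3% of tested protein-coding genes. Highest in RS were 6 members, Polr3f, Taf13, Taf9b, Med10, Med21 and Med29, beside 10.7% of protein-coding genes. Highest in ES were 5, Polr3g, Med12l, Med14, Taf1 and Taf4b, beside 14.7%. These shares were not computed over all features.

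Of the members, 4 lie on the X chromosome, which is silenced in pachytene spermatocytes: Med14, Med12, Taf1 and Taf9b. In RS against PAC 2 of the 4 were higher and none lower, while 6 of the 100 autosomal members were higher and 69 lower, beside 24% and 48.8% of tested autosomal protein-coding genes. Among the 661 tested protein-coding genes of the X chromosome 56.6% were higher in RS and 19.8% lower, with a median log2 fold change of 1.13. Taf1, the largest TFIID subunit, had 2.38, 2.46 and 1.75 CPM in RS and 3.14, 3.58 and 2.63 CPM in PAC (log2 fold change -0.50 ± 0.23, edgeR adjusted p = 0.0667). In ES it had 4.65, 5.91 and 5.96 CPM, above the RS libraries at a log2 fold change of 1.32 ± 0.23 (edgeR adjusted p = 0.000703), a call lost on log2(FPKM + 0.1).

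Levels between genes were set side by side on the per-length FPKM scale. Means over the 9 libraries ranged from 0.339 to 952.9 FPKM with a median of 10.3. Taf9 was highest, with 1215 FPKM in PAC, 1062 in RS and 581.6 in ES, but 73.8% of its exon bases are shared with the same-strand gene Ak6, so its level is uncertain. Polr1d, Med28, Med10 and Taf7l2 came next, with means of 168.9, 158.5, 143.9 and 118.9 FPKM. The sources used here do not say how reads were divided between paralogs of similar sequence.

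The 9 pairs of paralogs among the members were compared by the log2 ratio of their FPKM values, each with 0.1 added, in every library. The ratio of the germ-cell TFIIA gene Gtf2a1l to Gtf2a1 was 4.40 ± 0.18 in RS and 2.40 ± 0.56 in PAC (SD, n = 3 each), and 3.80 ± 0.37 in ES. In levels Gtf2a1l averaged 88.3 FPKM and Gtf2a1 4.06 FPKM in RS, a 21.7-fold difference, against 86.2 and 15.7 FPKM in PAC, a 5.5-fold difference. The ratios of RS and PAC did not overlap.

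Taf4b is the gonad-enriched paralog of Taf4. Its ratio to Taf4 was 3.16 ± 0.54 in RS and 0.57 ± 0.69 in PAC (SD, n = 3 each), and 1.98 ± 0.03 in ES. Taf4b itself differed little, with 6.96, 8.11 and 6.63 CPM in RS and 8.24, 8.95 and 7.28 CPM in PAC. The ratio of Taf9b to Taf9 was -7.04 ± 0.23 in RS and -8.38 ± 0.23 in PAC, within the limit for Taf9 given above. Taf7l2 exceeded Taf7 in every library, with ratios of 3.87 ± 0.06 in RS and 3.05 ± 0.18 in PAC (SD, n = 3 each).

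Polr3gl and Polr3g, the alternative RNA polymerase III subunits, changed places in ES. Their ratio was -1.25 ± 0.50 in ES, 1.67 ± 0.91 in RS and 1.67 ± 0.24 in PAC (SD, n = 3 each). Polr3gl was the higher of the pair in all 6 libraries of PAC and RS, and Polr3g in all 3 libraries of ES. The SAGA gene Taf5l and its TFIID paralog Taf5 stood at a ratio of 1.35 ± 0.28 in ES and 0.33 ± 0.03 in RS. Taf6l and Taf6 overlapped between all 3 cell types.

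Of the 27 tests over the 9 pairs, 21 gave a two-sided exact permutation p of 0.1, the smallest that 3 libraries against 3 can give, so none could pass. The Benjamini-Hochberg adjusted value of these exact tests was 0.129. The number added to FPKM mattered for genes of low level: with 1 in place of 0.1, the Taf4b to Taf4 difference of RS minus PAC was 0.95 in place of 2.60.

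**Figure D5:**
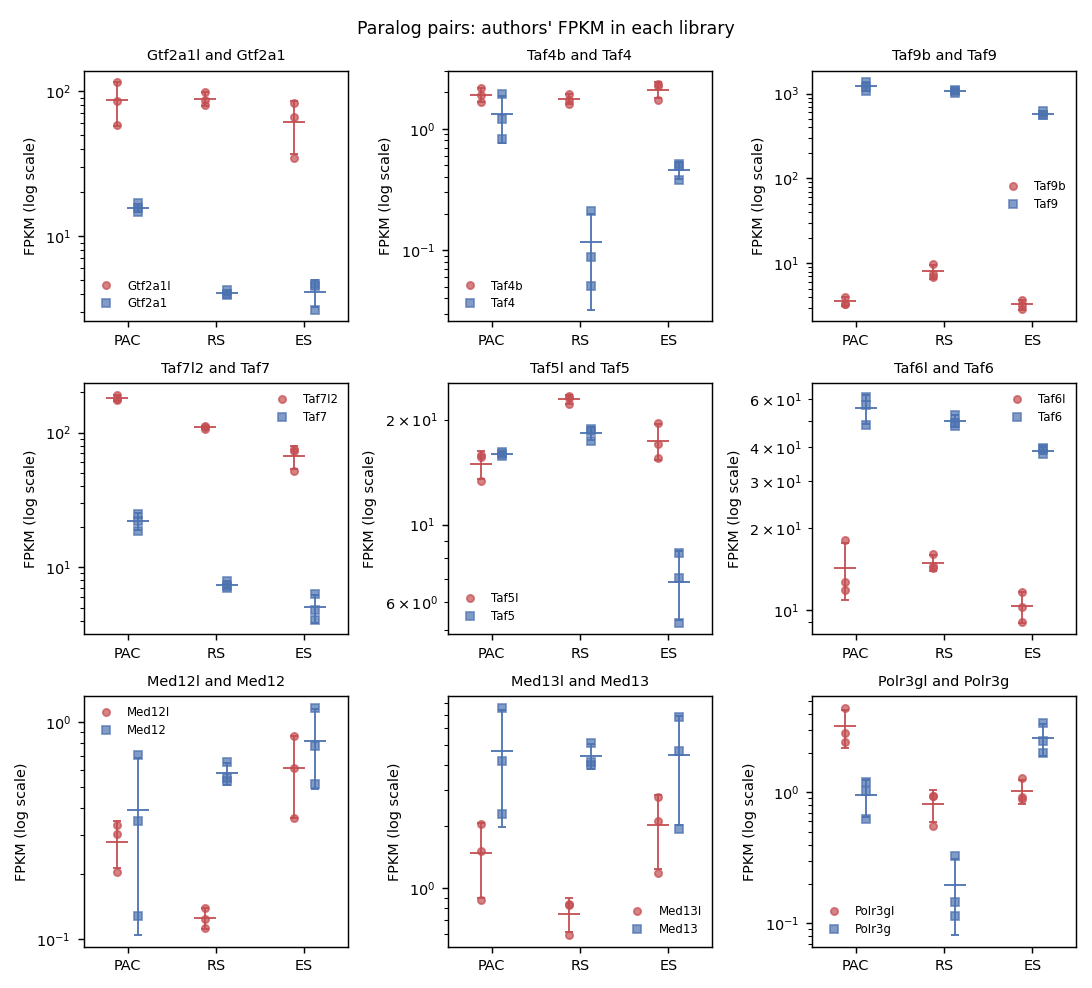
FPKM (log axis) of both genes of each of the 9 paralog pairs in PAC, RS and ES, as points per library with the mean and SD of 3 libraries. The gap between Gtf2a1l and Gtf2a1 is widest in RS, and Polr3g lies above Polr3gl in ES alone.

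A further 67 genes that work with these complexes but carry other names were described for comparison, and 66 could be tested. In RS against PAC 47 were lower and 8 higher, beside 46.9% and 26.3% of protein-coding genes and 34.2% and 38.2% of all features. In ES against RS 20 were lower and 18 higher, beside 21.7% and 31.8% of protein-coding genes and 22.1% and 24.5% of all features. In ES against PAC 52 were lower and 7 higher, beside 42.6% and 25.2% of protein-coding genes and 33.7% and 30.6% of all features. Tbp, which encodes the TATA-binding protein, was lower in RS by 0.53 on the log2 scale, with 198 ± 9.22 CPM in RS and 286 ± 4.70 CPM in PAC (SD, n = 3 each). Its germ-cell relative Tbpl1 had 344 ± 13.5 CPM in RS and 391 ± 24.4 CPM in PAC and did not pass (log2 fold change -0.18, edgeR adjusted p = 0.223). Taf7l, a testis TFIID gene, was higher in RS at 36.5 ± 1.08 CPM, against 16.3 ± 1.20 CPM in PAC (log2 fold change 1.16, edgeR adjusted p = 2.41e-05).

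The other TFIIH genes were lower in RS in 4 of 5 cases, led by the helicase gene Ercc2 at -3.01 on the log2 scale. The exception was Ercc3, which encodes the other TFIIH helicase and had 23.3 ± 1.38 CPM in RS and 28.8 ± 2.58 CPM in PAC (log2 fold change -0.31, edgeR adjusted p = 0.131). The kinase module of Mediator had Cdk8, Cdk19 and Ccnc all lower. Of 27 elongation genes 16 were lower in RS and 3 higher, beside 46.9% and 26.3% of protein-coding genes and 34.2% and 38.2% of all features. Hexim1 fell most, at -3.15 on the log2 scale, and Supt16, Nelfcd and Cdk9 fell by 3.02, 2.60 and 2.58. Tcea1, a gene of the elongation factor TFIIS, averaged 33.2 ± 5.34 CPM in PAC, 90.8 ± 2.48 in RS and 350.2 ± 35.0 in ES (SD, n = 3 each), higher at each stage. Tcea2, another TFIIS gene, went the other way, with 378.8 ± 33.6 CPM in PAC, 317.5 ± 10.1 in RS and 248.0 ± 18.4 in ES. It did not pass in RS against PAC and was lower in ES than in RS. Ell2, another elongation factor, had 222 ± 22.3 CPM in RS and 64.4 ± 7.94 CPM in PAC (log2 fold change 1.79, edgeR adjusted p = 2.15e-05). Among the phosphatases of the polymerase tail, Ctdp1 was higher in RS at 1.25 on the log2 scale and Ssu72 lower at -3.68.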

How the data were processed

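Ribosomal RNA was removed from total RNA and strand was kept with dUTP, per the labels' protocols. HISAT2, StringTie and the build GRCm38.p6 are named without versions, per the submitters' processing notes. The authors deposited estimated counts per feature (18.8% of the values are not whole, although the label calls them raw), which were rounded to whole numbers. The authors also deposited FPKM values of the same features, and the lengths and totals behind them are not stated. Of 21877 NCBI genes, 21726 matched a reference table of GRCm38.p6. Transcript lengths and exon overlaps came from GENCODE M21.

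The filter filterByExpr with minimum count 10 kept 26030 features and dropped 24463. Libraries were scaled by TMM, and all 9 entered a single edgeR quasi-likelihood fit (robust, two-sided, no replicate block), Benjamini-Hochberg adjusted over all features tested and called at 0.05. The standard error of a log2 fold change was derived from its F statistic. Low counts limit the precision of members with under 1 CPM. Paralog ratios used log2(FPKM + 0.1) and exact permutation tests. The fit was also run on simulated counts in which few genes changed, which cannot test the choice of scaling. Alternatives were other scalings and filters, DESeq2, limma on log2 FPKM, the replicate block, 2 cell types at a time and leaving out each library. Software was edgeR 4.0.16, DESeq2 1.42.0 and limma 3.58.1 in R 4.3.3, and scipy 1.17.1, pandas 2.3.3 and matplotlib 3.10.9 in Python 3.11.15.

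The members, gene lists and tests were chosen with earlier results of these data known. By rule the text names, for each comparison, the 10 highest and 10 lowest called members whose ranges do not overlap, both genes of each paralog pair and the 5 members highest in FPKM. Other members are named to show their complex, and were chosen after their values were seen. A member that this rule selects is not reported here by name; it stays in the counts.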

Additional observations from a re-analysis of the deposited data

How the results depend on the processing

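Across 21 alternatives, 181 of 189 values of the counts of called members and of their median distance from protein-coding genes stayed within the set limits (a count within 1.5 times). The exceptions were 16 and 19 members higher in RS against PAC with upper-quartile factors and with protein-coding genes alone, 18 lower in ES against RS with DESeq2 size factors, and, for members higher in ES against PAC, 3 with total counts alone, 4 and 4 on log2 FPKM with 0.1 and 1 added, 3 on log2 FPKM without a filter, and 6 without ES replicate 3. The cause was not tested. Leaving out each library in turn gave 6 to 9 members higher and 63 to 71 lower in RS against PAC. Of protein-coding genes 23.6% to 26.7% were higher there and 41.2% to 47.8% lower. In ES against RS 24 to 37 members were higher and 20 to 28 lower, beside 25.5% to 32.1% and 17.6% to 23.1%. In ES against PAC 6 to 11 were higher and 67 to 73 lower, beside 22.8% to 24.5% and 39.5% to 42.3%. Of the values for called members that are named, 2184 kept their direction and call, 167 lost the call, and Polr1d in RS against PAC turned to 0.026 with protein-coding genes alone.

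The replicate numbers were not taken to pair libraries, because deviations of libraries with the same number correlated between -0.04 and 0.273. With the replicate number as a block, 10 members were higher and 70 lower in RS against PAC, 32 and 28 in ES against RS, and 12 and 75 in ES against PAC. The shares of protein-coding genes were 27% and 47.2%, 32.5% and 22.8%, and 25.7% and 43.9% in the same order. Counts of 6 to 30 per library limit Polr1b, Polr2h, Polr3g, Taf1c, Taf4, Med11 and Med18 in RS.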
